A study of Mus musculus with 6 samples.

Results

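The 10 genes described here encode costimulatory receptors of T cells and ligands of the tumour necrosis factor (TNF) family that T cells display. They were taken by symbol from the deposited count table of 31017 genes, and all 10 were found: Cd28 and Icos of the CD28 family, the TNF receptor family genes Cd27, Tnfrsf4, Tnfrsf9, Tnfrsf18 and Tnfrsf1b, and the TNF family ligand genes Cd40lg, Tnfsf11 and Tnfsf8. RNA came from mouse Th17 cells, helper T cells that secrete interleukins of the IL-17 family, which had been differentiated in culture. The 3 control libraries are labelled wild type, and the 3 KO libraries come from cells deficient in RTF1, a nuclear factor that works with the PAF1 complex on transcribing RNA polymerase II and promotes ubiquitination of histone H2B. Strain, age, the allele, what deletes it and the culture conditions are not given in the sources used here, nor is it said whether the libraries of a group came from separate animals, so that p-values measure only the spread between these libraries.

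A T cell that meets its antigen needs, besides the signal from its antigen receptor, costimulatory signals from neighbouring cells. CD28 and ICOS bind ligands of the B7 family and recruit phosphoinositide 3-kinase, whereas receptors of the TNF family gather TRAF adaptors and activate NF-kappaB, which sustains division and survival. The ligands CD40L, RANKL and CD30L work in the opposite direction, since an activated T cell uses them to signal to B cells, dendritic cells, osteoclast precursors and other T cells.

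Total counts ran from 16489813 to 51271226 per library, and the 10 genes had between 151 and 24106 counts in each library. Below, the 3 values of a group follow the order of replicates 1, 2 and 3, means are given ± SD over the libraries of a group (n = 3), and the log2 change is that of KO over control from edgeR, ± SE. The share of mitochondrial counts was 0.642% to 1.16% in control and 1.11% to 1.44% in KO. Rtf1 held 91.2 ± 2.84 CPM (counts scaled to a common library total with TMM factors) in control and 33.9 ± 10.03 CPM in KO (log2 change −1.42 ± 0.191, adjusted p = 0.000755). Of 10 genes listed for T cell and Th17 identity all were detected, Cd4 at 486 ± 48.6 CPM in control and 254 ± 36.0 CPM in KO, while Il17a was 292 ± 63.9 and 92.8 ± 61.6 CPM. Libraries numbered 3 stood apart in both groups: they held 11376 and 5147 counts over 4 Y-linked genes, against 1 to 3 counts in the other libraries. Several results that rest on these libraries are given with and without them.

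Of the 10 costimulatory genes 6 changed in KO and 4 did not pass the test. Tnfrsf1b rose 4-fold, while Tnfrsf4, Tnfrsf18, Cd27, Cd40lg and Tnfsf8 fell to between 22.9% and 62.8% of their control level. Cd28, Icos, Tnfrsf9 and Tnfsf11 were not called. A gene was called at an adjusted p under 0.05 in edgeR's quasi-likelihood test of KO against control, adjusted over 14268 tested genes, and all 10 passed the filter on low counts. Among all tested genes 46.1% were called, 23.2% higher and 22.9% lower, so that 6 called of 10, or 1 higher and 5 lower, is to be read against that share. The groups did not overlap for 6 of the 10 genes, and for 57.9% of all tested genes. The median log2 change was −0.36 over the 10 genes and 0.013 over all tested genes. In bulk RNA, fewer cells that express a gene and less RNA per cell cannot be told apart.

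**Figure D1:**
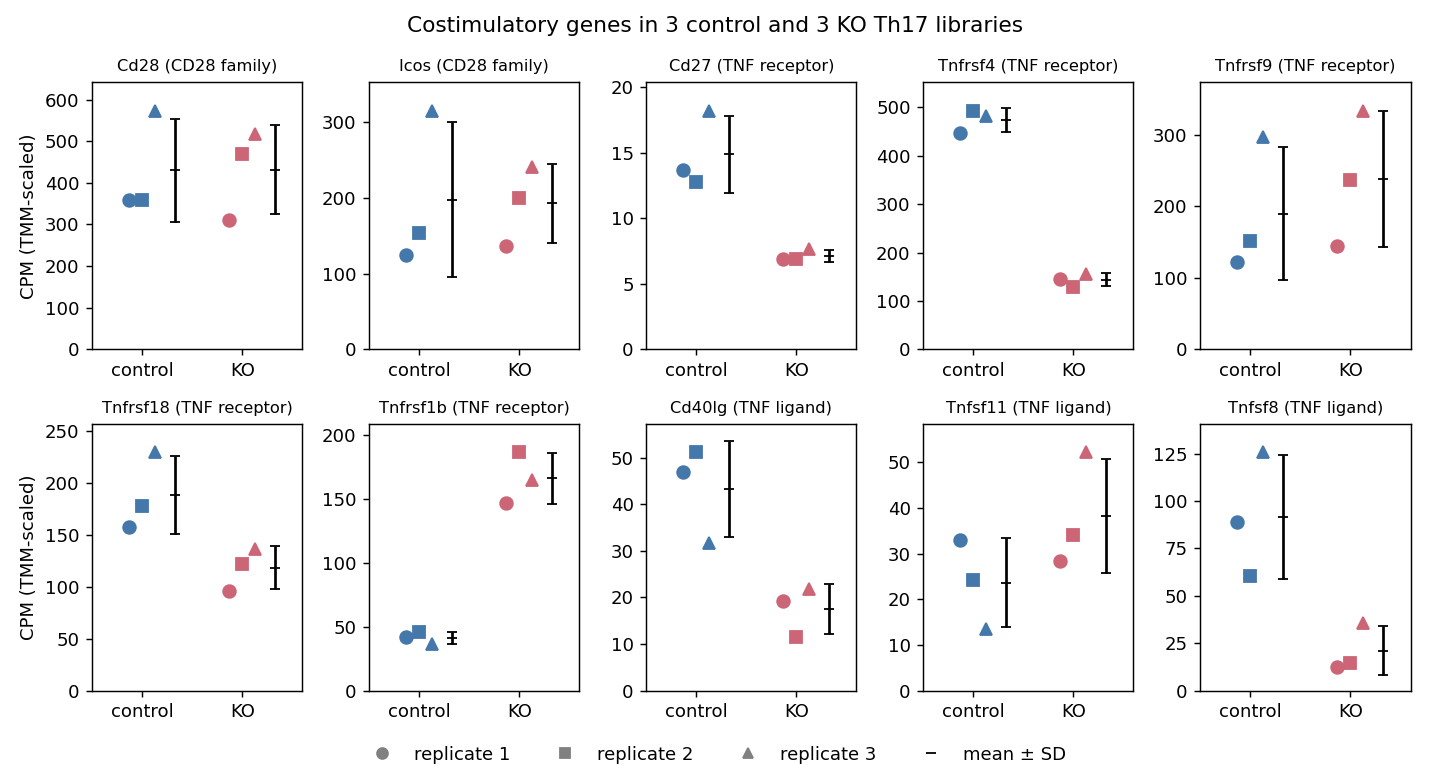
Normalised expression (CPM, linear axes from 0) of each costimulatory gene in the 3 control and 3 KO libraries, with symbols for the replicate number and a bar for the mean ± SD. Control and KO points are fully separated for Tnfrsf4, Tnfrsf1b, Cd27, Tnfrsf18, Cd40lg and Tnfsf8, and they overlap for Cd28, Icos, Tnfrsf9 and Tnfsf11.

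Because Tnfrsf4 and Tnfrsf1b were the receptor genes with the largest fall and the largest rise, the 250 bases before their RefSeq start sites are shown (assembly GRCm38.p6, the mm10 build named in the submitters' processing notes; 5′ to 3′ on the gene's strand). Capitals mark matches on either strand to the start of a kappaB site (GGGANTT), the AP-1 pattern (TGANTCA), the TATA box motif (TATAAA), the GC box motif (GGGCGG) or the E box motif (CACGTG). The Tnfrsf4 window is chr4:156013445-156013694 on the plus strand, and the Tnfrsf1b window is chr4:145246871-145247120 on the minus strand.
Tnfrsf4: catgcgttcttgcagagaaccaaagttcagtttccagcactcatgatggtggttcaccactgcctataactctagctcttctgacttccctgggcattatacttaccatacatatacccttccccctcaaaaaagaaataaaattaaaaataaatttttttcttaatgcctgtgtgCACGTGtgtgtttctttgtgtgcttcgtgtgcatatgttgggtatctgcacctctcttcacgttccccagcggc
Tnfrsf1b: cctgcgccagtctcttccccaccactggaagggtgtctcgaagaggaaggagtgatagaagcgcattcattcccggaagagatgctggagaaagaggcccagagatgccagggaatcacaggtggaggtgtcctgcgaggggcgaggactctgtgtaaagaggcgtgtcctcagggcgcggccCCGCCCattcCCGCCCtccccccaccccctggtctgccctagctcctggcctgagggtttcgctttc

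The Tnfrsf4 window was AT-rich (42.8% G and C) and held 1 E box and no match to the other patterns. It ends at 156013694, short of 156013843, where the GENCODE model of Tnfrsf4 starts, and the bases between were not scanned. Part of the window lies within Sdf4, which ends 232 bases before that GENCODE start. The letters found therefore do not describe the bases next to that start. The Tnfrsf1b window had 62.8% G and C and held 2 GC boxes and no match to the others. Windows were found for 7 of the 10 genes (Cd27, Tnfrsf4, Tnfrsf9, Tnfrsf18, Tnfrsf1b, Tnfsf11 and Tnfsf8), and Tnfrsf9 had 2. A kappaB start occurred in 1 of the 7 genes, Tnfrsf9, and in 14.4% of all 32851 promoter windows of this length. GC boxes occurred in 2 of 7 genes (32.7% of all windows), and E boxes, AP-1 matches and TATA boxes in 1 gene each (6.02%, 6.75% and 12.4%). The core GGAAAA of NFAT sites, which is not capitalised, occurred in 3 of 7 genes and 20.4% of all windows. These matches describe letters in the windows, and binding was not measured.

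The CD28 family genes were not called in either direction. Cd28 (chromosome 1, 60716800 to 60773359, plus strand), whose protein binds CD80 and CD86 and is the main costimulatory receptor of naive T cells, held 359, 358 and 573 CPM in control and 311, 469 and 516.5 CPM in KO. The groups overlapped widely, with the highest value of each in replicate 3. The means were 430 ± 124 and 432 ± 108 CPM, a log2 change of 0.0070 ± 0.239 (adjusted p = 0.983) with a 95% interval from −0.53 to 0.55. The sign of this value depended on the scaling and on which library was left out.

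Icos (chromosome 1, 60977927 to 61000320, plus strand) encodes the inducible receptor that binds ICOS ligand. It held 124, 154 and 314 CPM in control and 137, 199.8 and 240.5 CPM in KO. Control replicate 3 lay above every KO library and control replicate 1 below all of them. The log2 change was −0.038 ± 0.336 (adjusted p = 0.934; 95% interval −0.80 to 0.72), and without control replicate 3 it was 0.41 (adjusted p = 0.153). With the replicates numbered 3 left out of both groups it was 0.27 (adjusted p = 0.255).

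Between Cd28 and Icos on chromosome 1 lies Ctla4, whose protein competes with CD28 for CD80 and CD86 and restrains T cells. Ctla4 fell from 1002 ± 30.2 to 236 ± 16.2 CPM (log2 change −2.09 ± 0.121, adjusted p = 3.86e-05). Per length, the ratio of Cd28 to Ctla4 transcripts was 0.133, 0.141 and 0.216 in control and 0.482, 0.726 and 0.904 in KO. The ratio of every KO library thus lay above that of any control library. An exact permutation test on log2 ratios (two-sided) gave p = 0.1, the smallest value 3 libraries against 3 can give. Cd28 itself was not called, so this separation restates the fall of Ctla4 and shows no gain of Cd28. The ratio of Cd28 to Icos was 1.32 ± 0.300 in control and 1.26 ± 0.0561 in KO (exact permutation test, two-sided, p = 0.9).

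Of the 5 TNF receptor genes 3 fell, 1 rose and 1 was not called, beside 22.9% of all tested genes called lower and 23.2% called higher. Tnfrsf4 (chromosome 4, 156013843 to 156016612, plus strand) encodes OX40, which activated T cells display and which supports their survival and memory. It held 446, 492 and 482 CPM in control and 145, 129 and 156 CPM in KO. All KO libraries lay far below the lowest control library, and the replicates of each group lay close together. The means were 473 ± 24.2 and 143 ± 13.3 CPM, so that 30.3% of the control level was measured in KO (log2 change −1.72 ± 0.122, adjusted p = 7.03e-05). This log2 change lay between −1.83 and −1.64 in all 14 alternative fits and was called in each.

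Tnfrsf18 (chromosome 4, 156026164 to 156028895, plus strand) is the next protein-coding gene, 9551 bases from Tnfrsf4, and encodes GITR, a receptor prominent on regulatory T cells and induced on activated ones. Tnfrsf18 held 157, 178 and 229 CPM in control and 95.9, 122 and 136 CPM in KO. The groups did not overlap, and in both of them replicate 3 was highest and replicate 1 lowest. The log2 change was −0.67 ± 0.177 (adjusted p = 0.0140; means 188 ± 37.1 and 118 ± 20.6 CPM). Exons of Gm16008 on the opposite strand overlap 27.2% of the exonic bases of Tnfrsf18, and whether counting used strand is not given in the sources used here. Gm16008 itself had 138 to 398 counts per library and was not called (log2 change 0.23, adjusted p = 0.495), against 2525 to 9648 counts for Tnfrsf18.

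The ratio of Tnfrsf4 to Tnfrsf18 per length was 3.17, 3.09 and 2.35 in control and 1.69, 1.18 and 1.27 in KO. The groups did not overlap (exact permutation test on log2 ratios, two-sided, p = 0.1, the smallest possible). Neither flanking gene was called lower. Sdf4, which ends 232 bases before Tnfrsf4, held 530 ± 171 and 722 ± 179 CPM (log2 change 0.45, adjusted p = 0.173), and Ttll10, 5944 bases beyond Tnfrsf18, rose from 0.941 ± 0.466 to 16.9 ± 3.24 CPM (log2 change 4.27 ± 0.348, adjusted p = 0.000116).

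Cd27 (chromosome 6, 125232622 to 125237010, minus strand) encodes a receptor that T cells carry before activation and that binds CD70. It was the least abundant of the receptor genes, with 13.7, 12.8 and 18.2 CPM in control and 6.87, 6.89 and 7.68 CPM in KO. All KO libraries lay below every control library and close to one another. Cd27 fell to 48.0% of the control level (log2 change −1.06 ± 0.192, adjusted p = 0.00266), and 5.54% of its exonic bases overlap Mir8113 on the same strand.

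Tnfrsf9 (chromosome 4, 150914562 to 150946102, plus strand) encodes 4-1BB, a receptor induced by antigen that supports T cell survival. It held 122, 151 and 297 CPM in control and 144.5, 237 and 334 CPM in KO. The groups overlapped, but within each replicate number KO lay above control. Tnfrsf9 was not called in the fit without the replicate number (log2 change 0.33 ± 0.366, adjusted p = 0.491; 95% interval −0.51 to 1.16). With the replicate number as a block it was called higher (0.35, adjusted p = 0.0341), and the log2 change was 0.0051 without KO replicate 3 (adjusted p = 0.993), 0.74 without control replicate 3 (adjusted p = 0.056) and 0.48 with the replicates numbered 3 left out of both groups (adjusted p = 0.0875).

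Tnfrsf1b (chromosome 4, 145213463 to 145246870, minus strand) encodes TNFR2, the receptor through which TNF costimulates T cells and supports regulatory T cells. Tnfrsf1b held 41.6, 46.1 and 36.7 CPM in control and 147, 186 and 164.5 CPM in KO. Every KO library was above 3 times the highest control library. The means were 41.4 ± 4.69 and 166 ± 19.8 CPM (log2 change 2.001 ± 0.137, adjusted p = 6.78e-05), and the log2 change lay between 1.86 and 2.09 in all 14 alternative fits, each of which called it. Its neighbours did not pass the test: Vps13d had a log2 change of −0.033 (adjusted p = 0.874), and Tnfrsf8, which encodes CD30, 0.66 (adjusted p = 0.306). Tnfrsf8 was called once the replicate number was a block (0.85, adjusted p = 0.00449) and without control replicate 3 (1.42, adjusted p = 0.0068). It was also called with the replicates numbered 3 left out of both groups (1.06, adjusted p = 0.00585).

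Genes that mark regulatory T cells moved in part with Tnfrsf1b. Of 5 such genes 3 were called higher and none lower, beside 23.2% and 22.9% of all tested genes. Their summed level was 59.6 to 73.3 CPM in control and 90.1 to 119 CPM in KO. Foxp3, the defining factor of these cells, held 1.42 ± 0.199 and 3.29 ± 1.31 CPM, with 23 to 127 counts per library. Ikzf2 held 10.8 ± 2.92 and 35.9 ± 10.1 CPM, and Nrp1 was called higher as well (log2 change 0.95, adjusted p = 0.0119). Gpr83 (−0.14, adjusted p = 0.714) and Lrrc32 (−0.13, adjusted p = 0.742) were not called. Tnfrsf18, described above as prominent on these cells, fell (−0.67, adjusted p = 0.0140). The part of these cells in the result was not tested.

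The proportions of the 5 receptors were compared next. Per length (CPM per kilobase of exon), the summed level of the 5 receptors was 557 ± 69.3 in control and 317 ± 54.5 in KO. Tnfrsf4 made up 66.5%, 65.5% and 56.0% of this sum in control and 40.3%, 30.2% and 30.6% in KO. The share of Tnfrsf1b was 1.98% ± 0.392 in control and 13.9% ± 2.08 in KO, and that of Tnfrsf9 was 12.2% ± 4.47 and 26.9% ± 6.43. Neither share overlapped between the groups, whereas the share of Tnfrsf18 was 22.0% ± 1.62 and 24.5% ± 0.927 and that of Cd27 was 1.14% ± 0.131 and 0.983% ± 0.122. Shares sum to 100% within a library, so that a smaller share of one receptor raises the others.

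**Figure D2:**
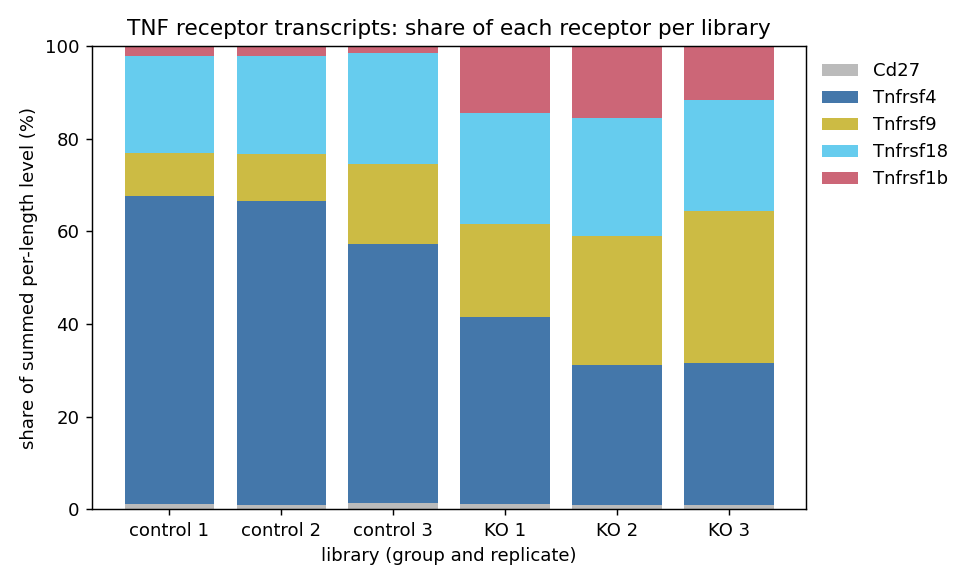
Share of each TNF receptor gene in the summed per-length level of the 5 genes (percent, stacked), 1 bar per library. Tnfrsf4 takes 56.0% to 66.5% in control libraries and 30.2% to 40.3% in KO libraries, and the shares of Tnfrsf9 and Tnfrsf1b are larger in each KO library than in any control library.

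Among the 3 ligand genes Tnfsf8 and Cd40lg fell and Tnfsf11 was not called, beside 22.9% of all tested genes called lower and 23.2% called higher. Tnfsf8 (chromosome 4, 63831308 to 63861347, minus strand) encodes CD30L, the ligand of CD30. It held 88.9, 60.5 and 126 CPM in control and 12.6, 14.4 and 35.9 CPM in KO. The groups did not overlap, and KO replicate 3 stood above the other KO libraries. The means were 91.7 ± 32.7 and 20.96 ± 12.96 CPM, a fall to 22.9% of control (log2 change −2.14 ± 0.413, adjusted p = 0.00351), and without KO replicate 3 the log2 change was −2.76.

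Cd40lg (X chromosome, 57212143 to 57224042, plus strand) encodes CD40L, with which helper T cells activate B cells and dendritic cells. It held 46.9, 51.2 and 31.7 CPM in control and 19.3, 11.6 and 21.9 CPM in KO. The groups did not overlap, and the gap was narrowest in replicate 3, the libraries with Y-linked counts. Cd40lg fell from 43.3 ± 10.2 to 17.6 ± 5.34 CPM (log2 change −1.30 ± 0.260, adjusted p = 0.00404). With the replicates numbered 3 left out of both groups the log2 change was −1.68 (adjusted p = 0.000209).

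Tnfsf11 (chromosome 14, 78277445 to 78308043, minus strand) encodes RANKL, the osteoclast-inducing ligand that Th17 cells are known to produce. Its values were 33.01, 24.2 and 13.5 CPM in control and 28.4, 33.9 and 52.2 CPM in KO. Replicate 3 was the lowest control and the highest KO library, and KO replicate 1 lay below control replicate 1. The log2 change was 0.70 ± 0.325 (adjusted p = 0.107; 95% interval −0.035 to 1.44), and with the replicates numbered 3 left out of both groups it was 0.13 (adjusted p = 0.587). The ratio of Cd40lg to Tnfsf11 per length was 2.54, 3.79 and 4.19 in control and 1.21, 0.611 and 0.750 in KO, with no overlap (exact permutation test on log2 ratios, two-sided, p = 0.1). This ratio contains the fall of Cd40lg, and its separation shows no gain of Tnfsf11, which was not called.

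Within equal replicate numbers, 7 of the 10 genes differed in the same direction in all 3 pairs, the 6 called genes and Tnfrsf9, against 74.6% of all tested genes. Cd28, Icos and Tnfsf11 changed direction between pairs. Replicate 3 held the highest value for 6 of the 10 genes in control and for 9 of 10 in KO, while among all tested genes it was the highest control library for 41.4% and the highest KO library for 34.2%.

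**Figure D3:**
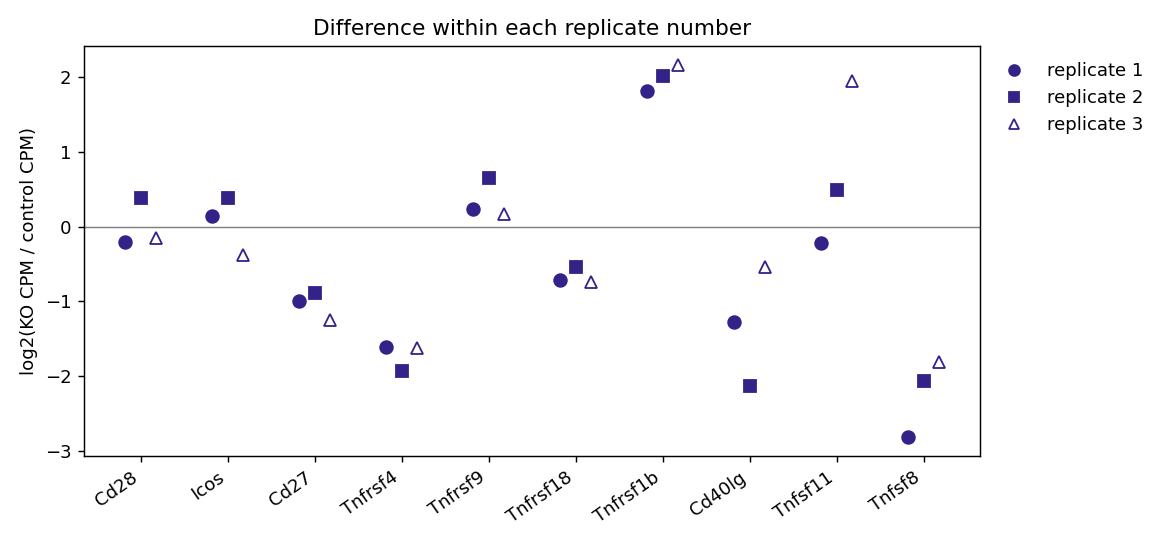
Difference between KO and control (log2 ratio of CPM) within replicate numbers 1, 2 and 3 for each gene, with open triangles for replicate 3. All 3 points lie above 0 for Tnfrsf1b and below 0 for Cd27, Tnfrsf4, Tnfrsf18, Cd40lg and Tnfsf8, and Tnfsf11 ranges from −0.22 to 1.95.

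Compared per length, Tnfrsf4 was the most abundant of the 10 transcripts in both groups, at 347 ± 17.7 CPM per kilobase in control and 105 ± 9.75 in KO, levels above those of 99.0% and 97.3% of 14103 tested genes with a known length. In control it was followed by Tnfrsf18 (123 ± 24.4), Cd28 (70.2 ± 20.2), Tnfrsf9 (69.8 ± 34.4), Icos (57.5 ± 29.8), Cd40lg (34.6 ± 8.17), Tnfsf8 (24.1 ± 8.59), Tnfrsf1b (10.9 ± 1.23), Tnfsf11 (10.5 ± 4.36) and Cd27 (6.39 ± 1.25 CPM per kilobase). Neighbours in this order had ranges that did not overlap at 3 places: Tnfrsf4 above Tnfrsf18, Tnfrsf18 above Cd28, and Tnfsf8 above Tnfrsf1b. In KO the order was Tnfrsf4, Tnfrsf9 (87.6 ± 34.8), Tnfrsf18 (77.5 ± 13.5), Cd28 (70.6 ± 17.6), Icos (56.1 ± 15.3), Tnfrsf1b (43.4 ± 5.19), Tnfsf11 (17.1 ± 5.57), Cd40lg (14.1 ± 4.27), Tnfsf8 (5.51 ± 3.41) and Cd27 (3.07 ± 0.197 CPM per kilobase). Tnfrsf1b above Tnfsf11 was then separated without overlap, whereas the lowest Tnfsf8 and the highest Cd27 library were both at 3.30 CPM per kilobase and these ranges overlapped when the longest transcript was used as length. The range of Tnfrsf4 overlapped that of the next receptor. Tnfrsf1b moved from above 69.2% to above 92.5% of tested genes, and Tnfsf8 from above 85.2% to above 54.2%.

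The binding partners of these proteins were examined as a list of 13 genes, of which 11 were tested, 4 were called higher and 1 lower. Beside these counts, 23.2% of all tested genes were called higher and 22.9% lower. Tnfsf4, the ligand of OX40, rose from 2.43 ± 0.209 to 15.4 ± 6.52 CPM (log2 change 2.65 ± 0.312, adjusted p = 0.000452), opposite to its receptor gene Tnfrsf4. Cd40, the receptor of CD40L and typical of B cells and dendritic cells, rose from 2.13 ± 1.22 to 19.4 ± 7.26 CPM (3.16 ± 0.447, adjusted p = 0.000932) while Cd40lg fell. Tnfrsf11b, which encodes the soluble RANKL decoy osteoprotegerin, rose from 0.498 ± 0.474 to 6.01 ± 1.80 CPM (3.50 ± 0.586, adjusted p = 0.00191). Icosl rose from 1.38 ± 1.14 to 5.27 ± 2.25 CPM (1.90, adjusted p = 0.0269), and passed the threshold in 2 of 6 fits made with a single library removed. Lta, whose product lymphotoxin alpha binds TNF receptors, fell from 305 ± 73.6 to 171 ± 77.3 CPM (−0.83, adjusted p = 0.0490), a call likewise held in 2 of these 6 fits and lost when scaled by library size alone (adjusted p = 0.0668) or filtered on a mean count of at least 10 (adjusted p = 0.0519). Without control replicate 3 the log2 change was 4.68 for Tnfrsf11b and 2.86 for Icosl, and for Cd40 it was 3.78 without control replicate 2 and 2.51 with replicates 3 left out of both groups.

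The other partners did not pass the test. Cd80 (log2 change −0.22, adjusted p = 0.441) and Cd86 (0.26, adjusted p = 0.238), the ligands of CD28, were measured at 10.8 ± 1.39 and 34.4 ± 6.48 CPM in control and 9.29 ± 2.30 and 41.2 ± 5.38 CPM in KO. Tnf held 73.0 ± 17.1 and 100.5 ± 12.9 CPM (0.46, adjusted p = 0.0667) and was called higher when blocked on the replicate number (0.48, adjusted p = 0.0337). It was also called with library size only (0.55, adjusted p = 0.0330), without a filter (0.45, adjusted p = 0.0474) and without control replicate 2 (0.60, adjusted p = 0.0427). With replicates 3 left out of both groups Tnf was not called (0.25, adjusted p = 0.201). Tnfsf9, the 4-1BB ligand gene, had 0.54 (adjusted p = 0.0880), and Cd70, at 0.463 ± 0.164 and 1.496 ± 1.39 CPM, had 1.69 (adjusted p = 0.0839). Cd70 passed the threshold in DESeq2 (1.67, adjusted p = 0.0422), without a filter (1.67, adjusted p = 0.0475) and without KO replicate 2 (2.18, adjusted p = 0.0273), and without replicates 3 its log2 change was 0.37 and that of Tnfsf9 was 0.18. Tnfsf18 and Tnfrsf11a had too few counts to be tested.

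**Figure D4:**
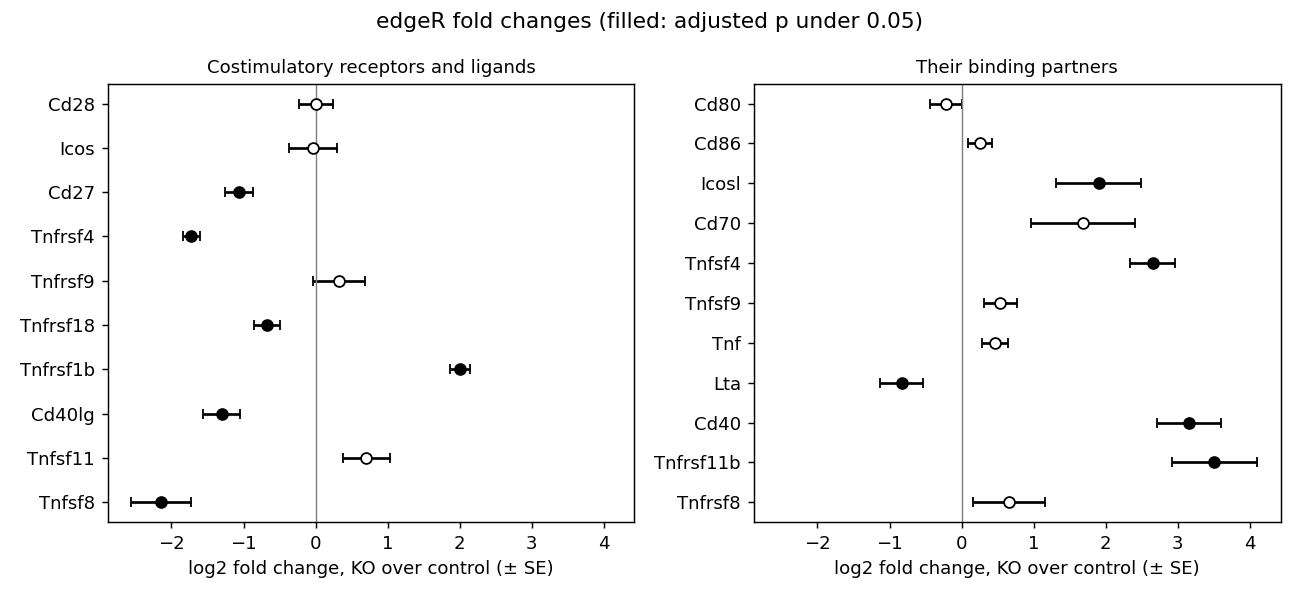
Log2 change of KO over control (± SE, edgeR) for the 10 costimulatory genes (left) and the 11 tested binding partners (right), with filled points for an adjusted p under 0.05. Tnfrsf1b is the one filled point right of 0 on the left, and Tnfsf4, Cd40, Tnfrsf11b and Icosl are filled right of 0 on the right.

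Cd40, Icosl and Tnfsf4 are known from antigen-presenting cells, whose markers were measured beside them. Calls among these markers stand beside 23.2% of all tested genes called higher and 22.9% called lower. Of 6 B cell markers 3 were tested (1 higher, 1 lower), and Ms4a1 had at most 1 count in any library. The summed B cell markers were 1.61 to 4.06 CPM in control and 5.45 to 6.46 CPM in KO, with Cr2 at 0.732 ± 0.318 and 3.68 ± 0.706 CPM, while Cd79b was called lower (0.603 ± 0.307 and 0.158 ± 0.0933 CPM, adjusted p = 0.0236), though not with replicates 3 left out (adjusted p = 0.152). The 6 myeloid markers (3 tested, 2 higher) summed to 2.58 to 5.20 CPM in control and 16.9 to 28.5 CPM in KO, of which Cd68, a lysosomal gene, held 3.19 ± 1.32 and 20.001 ± 6.11 CPM. Csf1r was called higher besides Cd68, a call that held in 2 of 6 fits made with a single library removed. With replicates 3 left out of both groups Csf1r was not called (adjusted p = 0.0581). Lyz2 had 0, 2 and 4 counts in control and 46, 11 and 8 in KO, higher in every KO library, while Itgam and Adgre1 had at most 3 and 5 counts per library. The 6 dendritic cell markers (2 tested, 1 higher) summed to 1.80 to 3.56 and 8.73 to 10.6 CPM, of which Xcr1 made up 0.635 ± 0.240 and 4.91 ± 0.837 CPM. Itgax had 1, 2 and 0 counts in control and 20, 15 and 6 in KO, and Clec9a and Siglech had no more than 1. Markers of CD8 and NK cells (4 tested, 1 higher) summed to 10.8 to 15.1 and 15.1 to 16.2 CPM, and those of erythroid cells and of fibroblasts to under 3 CPM in every library. Eomes, of the CD8 and NK list, was called higher (0.0991 ± 0.0574 and 1.55 ± 0.603 CPM, adjusted p = 0.000946). Pdgfrb, of the fibroblast list, was called lower (0.539 ± 0.172 and 0.104 ± 0.0289 CPM, adjusted p = 0.00654). The part of these cells in the rise of the partner genes was not tested.

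Signalling genes downstream of the receptors moved in both directions, as did all tested genes (23.2% called higher and 22.9% lower). Of 20 genes of the CD28 pathway 3 were called higher and 9 lower (median log2 change 0.020), the increases being those of Pik3r1 (0.68, adjusted p = 0.00385), Tbk1 (0.68, adjusted p = 0.00178) and Vav1 (0.45, adjusted p = 0.0107). The call of Vav1 was lost without control replicate 1 (adjusted p = 0.105) and without control replicate 3 (adjusted p = 0.0629). The decreases included those of Lcp2, the adaptor SLP-76, from 435 ± 68.1 to 193 ± 25.2 CPM (−1.18, adjusted p = 0.000743) and Pik3r2 (−1.08, adjusted p = 0.000698). Of 11 TRAF adaptors and their partners 3 rose and 1 fell. Ripk1 rose from 69.1 ± 11.6 to 164 ± 10.5 CPM (1.25, adjusted p = 0.000369), and Tradd (0.79, adjusted p = 0.00492) and Birc2 (0.76, adjusted p = 0.00623) rose as well. Birc3 (−0.34, adjusted p = 0.0433) and, among 4 genes of noncanonical NF-kappaB signalling, Relb (−0.38, adjusted p = 0.0395) were called lower, but lost the call in 4 and 3 of 6 fits that left out 1 library, when scaled by library size alone and in DESeq2 (adjusted p = 0.0563 and 0.0530).

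Further genes of the TNF superfamily (16 tested of 22) were called higher in 8 cases and lower in 4, with a median log2 change of 0.47. Over all tested genes, 23.2% were called higher and 22.9% lower. Fas, the death receptor, rose from 19.5 ± 6.31 to 73.6 ± 18.5 CPM (log2 change 1.91, adjusted p = 0.000730), and Tnfrsf26 (1.13, adjusted p = 0.00485) and Tnfrsf1a, the other TNF receptor gene (0.77, adjusted p = 0.00227), also rose. Ltb, which encodes lymphotoxin beta, fell from 91.0 ± 27.9 to 27.4 ± 3.31 CPM (−1.74, adjusted p = 0.000527) and Tnfrsf25, the costimulatory receptor DR3, from 46.2 ± 3.29 to 23.9 ± 3.18 CPM (−0.95, adjusted p = 0.00106). Relt was called lower (−0.65, adjusted p = 0.0414) and lost the call in 4 of 6 fits that left out 1 library and when scaled by library size alone (adjusted p = 0.0712).

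Other surface molecules of T cells and the adaptor gene Sh2d1a (14 genes, all tested) were called lower in 7 cases and higher in 1. Their median log2 change was −0.58, and 22.9% of all tested genes were called lower and 23.2% higher. Whether each of these molecules costimulates in these cells was not tested. Sh2d1a, the adaptor SAP of the SLAM receptors, fell from 70.3 ± 5.52 to 24.2 ± 3.05 CPM (−1.54, adjusted p = 0.000143). Cd226, the activating receptor DNAM-1, fell from 25.2 ± 7.24 to 9.70 ± 1.58 CPM (−1.39, adjusted p = 0.00170), and Dpp4 fell too (−1.57, adjusted p = 0.00577). Cd96, whose product shares a ligand with DNAM-1, rose from 12.96 ± 2.87 to 33.7 ± 2.49 CPM (1.38, adjusted p = 0.000722).

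Transcripts of several costimulatory genes, among them those of Icos and Tnfrsf4, are known targets of RNA-binding proteins of the Regnase, Roquin and tristetraprolin families, which shorten their life, whereas PTBP1 and ELAVL1 are known to stabilise transcripts. Of 11 genes listed for both kinds of regulator 3 were called higher and 2 lower (all tested genes: 23.2% and 22.9%). Zfp36l1 rose from 24.6 ± 2.64 to 119 ± 10.7 CPM (2.28 ± 0.131, adjusted p = 3.86e-05) and Zfp36, which encodes tristetraprolin, from 31.9 ± 5.43 to 110.2 ± 11.3 CPM (1.79 ± 0.153, adjusted p = 0.000136). Rc3h2, a Roquin gene, rose from 96.3 ± 16.5 to 150.5 ± 6.23 CPM (0.64, adjusted p = 0.00553). Zc3h12d, of the Regnase family, fell (−0.67, adjusted p = 0.0136), a call lost without KO replicate 2 (adjusted p = 0.0618). Ptbp1, named after its values were seen, was called lower (−0.48, adjusted p = 0.0354), with overlapping groups and a call that held in 2 of 6 fits made with a single library removed. Transcript stability was not measured.

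The genes whose pattern over the 6 libraries was most like that of Tnfrsf1b, by Pearson r of log2 CPM among 9445 genes, were Bcl6 (0.9998), Ext1 (0.9993) and Rhof (0.999), and 1008 genes exceeded an r of 0.95. For Tnfsf8 they were Camk4 (0.994), Atmin (0.991) and Ntrk3 (0.988), with 111 genes over 0.95. These values describe 6 libraries that share their groups, so that a difference between the groups by itself raises r.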

How the data were processed

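RNA-seq of 3 control and 3 KO libraries was analysed, with groups and replicate numbers from the sample titles and columns matched by description (0 columns without a sample). The values the authors deposited are whole-number counts per gene symbol. The submitters' processing notes name STAR, featureCounts, DESeq2 and mm10, with no version or role. The annotation, the strand setting and the version of each tool are not given in the sources used here. From these counts, KO was tested against control with edgeR 4.0.16 (R 4.3.3) by the quasi-likelihood test (TMM factors, filterByExpr by group, no covariate). The filter kept 14268 genes with 99.9% of counts. P-values were adjusted by Benjamini-Hochberg over these genes. SE is the absolute log2 fold change over the square root of F, and the 95% interval uses the test's degrees of freedom. The biological coefficient of variation was 0.212. No molecular identifiers are stated, so counting error is only part of the error. On simulated data for this comparison (14071 genes), 52.0% of 2-fold and 99.0% of 4-fold changes were recovered. The simulation gave all genes the same common dispersion and no effect of the replicate number. Its shares therefore do not carry over to genes that vary more between libraries.

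Lengths and positions came from GENCODE M21 (GRCm38), which matched 98.1% of symbols to 1 gene, and promoters from RefSeq (GRCm38.p6). No member shared more than 3.31% of its 50-base stretches with transcripts of another gene. Deviations of control and KO libraries correlated at 0.27, 0.13 and 0.379 for equal numbers 1, 2 and 3, against −0.39 to 0.204 for unequal numbers. Control replicate 2 correlated more with KO replicate 1 (0.204) than with KO replicate 2 (0.13). The highest value, 0.379, came from the libraries with Y-linked counts. These correlations therefore do not settle whether the numbers mark pairs. The numbers were used as pairs only in the block and in comparisons within equal numbers. The blocked fit is given where it changed a call.

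The members and gene lists were chosen with earlier results of these data known. All members and tested binding partners are named. Of other lists, up to 3 called genes per direction with the largest change, a mean of at least 5 CPM and no overlap between groups are named, apart from a gene not reported here, and the 3 genes most like the member with the largest rise and fall. Ctla4, Ttll10 and other flanking genes were named as neighbours, after the values were seen. Cell marker genes were named outside the rule on change, level and overlap. Alternatives were DESeq2 size factors and its Wald test (DESeq2 1.42.0), upper-quartile factors, library size only, 2 other filters, the block, and leaving out each library or both replicates 3.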

Additional observations from a re-analysis of the deposited data

How the results depend on the processing

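Of the 10 members, the 6 called ones (Tnfrsf1b higher; Cd27, Tnfrsf4, Tnfrsf18, Cd40lg and Tnfsf8 lower) kept their direction and their call in all 14 alternative fits. With the replicate block 2 members were called higher, Tnfrsf9 (0.35, adjusted p = 0.0341) joining Tnfrsf1b; the block changed no other member's call. The sign of Cd28 turned with upper-quartile factors (−0.018), without a filter (−0.0064) and in DESeq2 (−0.0075), and leaving out 1 library gave −0.17 to 0.21. The sign of Icos turned with library size only (0.051), with the replicate block (0.045) and without replicates 3 (0.27), and leaving out 1 library gave −0.34 to 0.41. The cause was not tested. Tnfsf11 stayed above 0 (0.13 to 0.94) and uncalled. Over all genes, 4460 to 7050 were called when 1 library was left out and 7628 with the block, against 6574. Using the longest transcript as length left all 10 ranks in control and 8 of 10 in KO in place. With 3 libraries per group, exact tests cannot go below p = 0.1, and changes of 2-fold or less are often missed.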
